A study of Mus musculus with 58 samples.

Results

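The genes that write and erase DNA methylation were followed through Xist induction and neural differentiation in mouse cells. They are 8 genes chosen by name, Dnmt1, Dnmt3a, Dnmt3b, Dnmt3l, Uhrf1, Tet1, Tet2 and Tet3, out of 22556 genes counted in every library, and all 8 had enough fragments to enter the test of 16227 genes. Chromatin-associated RNA, which is enriched for nascent transcripts, was sequenced from 58 libraries in 28 groups, 26 of which held 2 libraries and 2 of which held 3. All cells were female XX embryonic stem (ES) lines from a 129S x Cast cross in which a doxycycline-inducible promoter drives Xist from the 129S (Dom) X chromosome.

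WT cells carried no further change and were sampled at days 3 and 6 of the culture toward neuronal precursor cells (NPC). SPOC cells carried a mutation in the SPOC domain of SPEN, the main silencing factor recruited by Xist, in clones C11, D9 and H1, and the NPC libraries came from D9 and H1. In PCGF35 cells the Polycomb proteins PCGF3 and PCGF5 carried a degron tag that lets dTAG-13 degrade them, and these cells were sampled untreated and with dTAG-13 at ES days 0 and 1 and NPC days 3 and 6. PCGF35_SPOC cells added the SPOC mutation to that background in clones F10 and F6. DelPID cells lacked the Xist region that recruits Polycomb and were sampled at NPC days 3 and 6. DelPID_SPOC clones A8 and G3 combined both changes, and the study describes the G clone of this line as tetraploid. ES day 0 cells had no doxycycline, and ES day 1 cells had it at 1 µg/mL for 1 day in medium with serum and LIF. NPC cells had it throughout, so that medium, time, doxycycline and Xist RNA changed together. The labels give dTAG-13 as 100 uM, added 12 hours before doxycycline. The SPOC, PCGF35_SPOC and DelPID_SPOC lines are thus known from 2 or 3 clones each. Within a group their libraries came from different clones, so the spread there is between clones. WT, PCGF35 and DelPID groups hold numbered replicates of a single line. The paper describes those of WT and DelPID as duplicate experiments, in which the line was differentiated beside SPOC or DelPID_SPOC clones. It calls those of PCGF35 replicate experiments. The labels do not say that the PCGF35 replicates came from separate cultures, so their spread may be in part technical. P-values measure only the spread between these libraries, and the same clones recur over days and treatments.

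DNA methylation at CpG sites is placed de novo by Dnmt3a and Dnmt3b, with Dnmt3l as their catalytically inactive partner, and is copied after replication by Dnmt1, which Uhrf1 brings to hemimethylated DNA. The Tet enzymes oxidize methylcytosine and so start its removal. Embryonic stem cells are known for high Tet1 and Tet2, and the passage out of naive pluripotency is known for a rise of the de novo enzymes.

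The libraries held 2.29 M to 30 M counted fragments, with a median of 15.9 M (M being the SI prefix mega). The DelPID NPC replicate 1 libraries were the shallowest, with 2.29 M at day 6 and 6.37 M at day 3, against 9.19 M in the next library. The fewest fragments for any of the 8 genes in any library were 49, for Dnmt3l in the shallowest one. Levels are given as CPM, the count per M counted fragments of the library after TMM scaling of library sizes, and comparisons of cultures as log2 fold changes from edgeR's quasi-likelihood test over 16227 genes with Benjamini-Hochberg adjustment and a threshold of 0.05. The cultures labelled NPC were mixed in their markers. The neural genes Nes, Vim and Tubb3 were higher at day 6 than at ES day 0, 3 of 6 tested, while Sox1 was at 0 in every library (it overlaps Gm5607 on the same strand, so these counts say nothing of it) and the summed neural markers ranged from 39.7 to 393 CPM in NPC day 6 libraries and from 32.9 to 117 CPM in ES day 0 libraries. The summed pluripotency markers were still at 445 to 1480 CPM at NPC day 6, against 1520 to 2730 CPM at ES day 0. In such bulk libraries, fewer cells of a type and less RNA per cell cannot be told apart.

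In mm10 the counted spans were chr9:20907205-20959888 for Dnmt1, chr12:3806979-3914443 for Dnmt3a, chr2:153649448-153687730 for Dnmt3b, chr10:78042286-78063622 for Dnmt3l and chr17:56303336-56323486 for Uhrf1. They were chr10:62804569-62880014 for Tet1, chr3:133463676-133544390 for Tet2 and chr6:83362373-83441678 for Tet3. Each span holds exons and introns, both of which were counted, and all 8 genes are autosomal.

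The promoters of the pair with the largest rise and the largest fall during differentiation, Dnmt3b and Tet2, are printed to show the CpG sites, the substrate of these enzymes themselves, in front of their own starts. The sequences are the 250 bases before the annotated start, 5′ to 3′ on the strand of the gene, from RefSeq on GRCm38.p6, with each CG in capitals. They lie at chr2:153649199-153649448 on the plus strand for Dnmt3b and at chr3:133544391-133544640 on the minus strand for Tet2.
Dnmt3b: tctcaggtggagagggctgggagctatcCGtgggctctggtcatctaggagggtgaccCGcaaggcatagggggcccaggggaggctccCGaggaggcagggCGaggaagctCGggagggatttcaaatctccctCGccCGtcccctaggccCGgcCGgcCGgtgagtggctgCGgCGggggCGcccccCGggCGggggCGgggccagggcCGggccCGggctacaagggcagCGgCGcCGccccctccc
Tet2: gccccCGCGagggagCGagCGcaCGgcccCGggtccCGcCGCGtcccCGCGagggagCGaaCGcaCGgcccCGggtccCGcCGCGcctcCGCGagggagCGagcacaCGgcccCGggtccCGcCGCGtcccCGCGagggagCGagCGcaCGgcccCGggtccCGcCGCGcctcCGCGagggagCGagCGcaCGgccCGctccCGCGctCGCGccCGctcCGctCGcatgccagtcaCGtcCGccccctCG

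The Tet2 window held 51 CG, more than 99.9% of the 32851 promoter windows of that length, and the Dnmt3b window held 21, more than 83.7% of them. The Dnmt3a window was also dense, with 38. The counts were 17 for Tet3, 15 for Tet1 and 10 for Uhrf1, whereas Dnmt3l with 5 and Dnmt1 with 2 were under the median of 6. The letters GGGCGG, read on both strands, were found 5 times in front of Dnmt3a, 3 times in front of Dnmt3b and once each in front of Uhrf1, Tet1, Tet2 and Tet3, and occurred in 32.7% of all windows. The letters CCAAT, on both strands, were found 4 times in front of Dnmt1 and once each in front of Uhrf1 and Tet3, and occurred in 33.8% of all windows. Each of these starts lay within 1 base of the start of the counted gene except that of Tet1, which lay 7310 bases upstream of it. Dnmt1, Dnmt3a and Dnmt3l have 3 annotated starts each and Uhrf1 has 2, and only the start nearest to that of the counted gene was read. Which start these cells use was not tested, so the counts may not be those of the promoter in use. No methylation was measured here, and the counts of letters are a description of the sequence.

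Per length of gene, Tet1 was the most abundant of the 8 in ES libraries. Its median was 9.92 CPM per kilobase of gene span (introns included), followed on that scale by Uhrf1 at 5.04, Dnmt1 at 3.71, Dnmt3b at 3.27, Tet2 at 2.72, Dnmt3l at 2.10, Dnmt3a at 0.562 and Tet3 at 0.384. Tet1 exceeded Uhrf1, and Uhrf1 exceeded Dnmt1, in all 26 ES libraries, whereas the neighbours Dnmt1 and Dnmt3b (15 of 26), Dnmt3b and Tet2 (16 of 26) and Tet2 and Dnmt3l (20 of 26) traded places between libraries. In the 32 NPC libraries the order on the same scale was Tet1 at 9.02, Dnmt3b at 8.09, Uhrf1 at 6.82, Dnmt1 at 4.37, Dnmt3l at 2.50, Tet2 at 1.19, Dnmt3a at 0.918 and Tet3 at 0.592. Dnmt3b stood next to Tet1 there, which exceeded it in 17 of 32 libraries, and Tet2 stood below Dnmt3l, which exceeded it in 26 of 32.

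**Figure D1:**
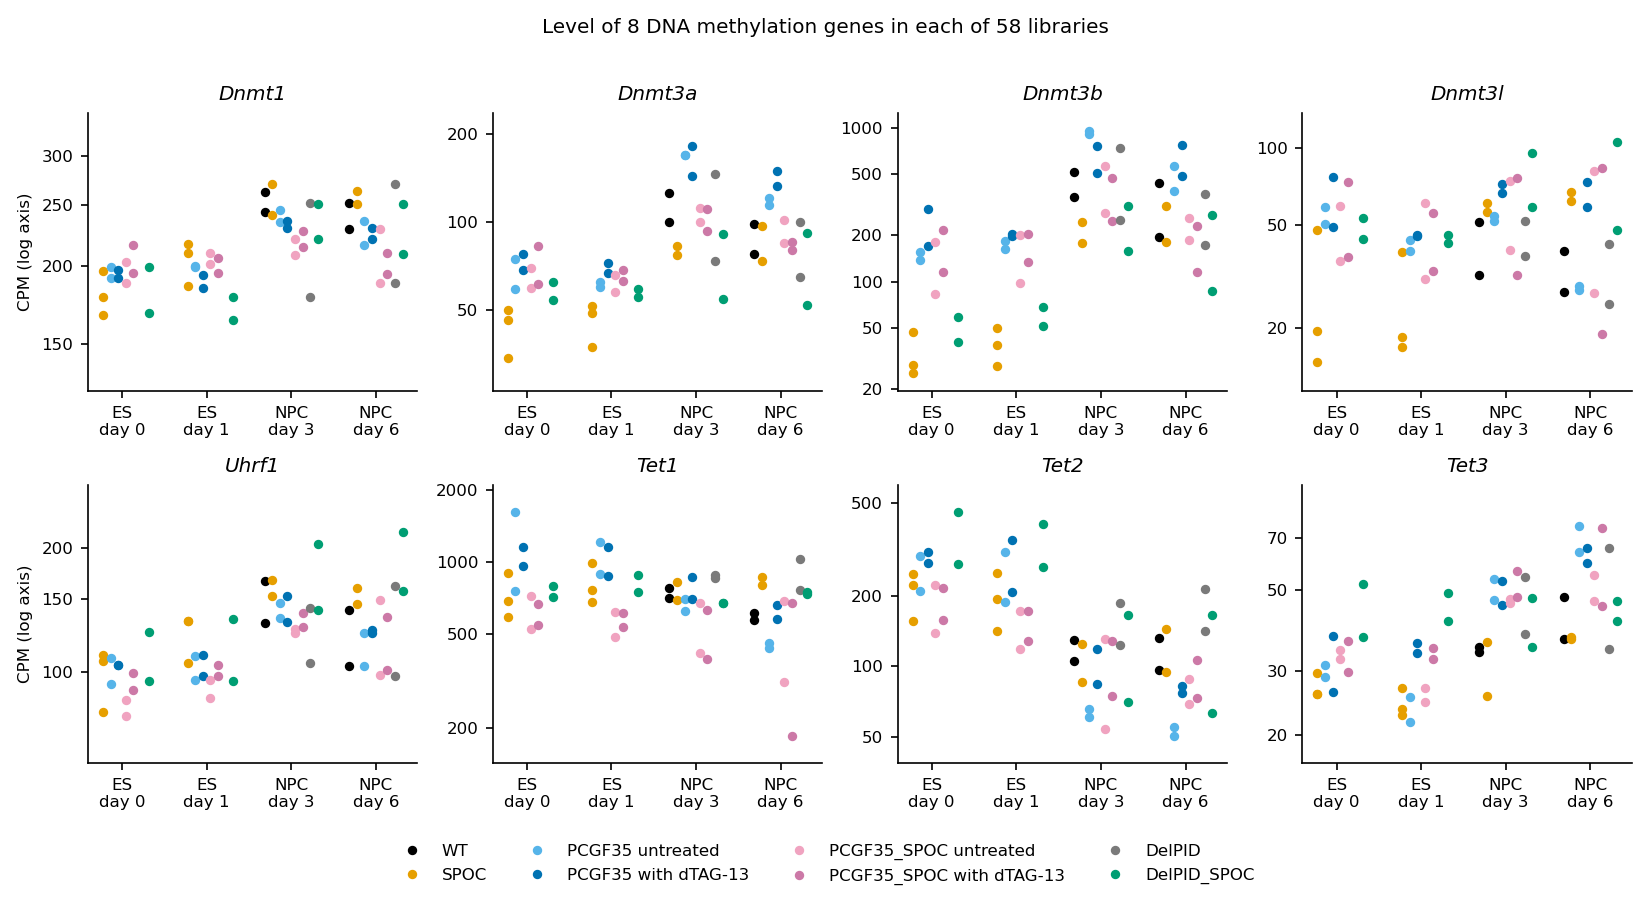
Level of each of the 8 genes in CPM (log axes) in each of the 58 libraries, by culture and day, with 1 point per library coloured by line and treatment. Dnmt3b reached 959 CPM in an NPC day 3 library of untreated PCGF35 cells, and Tet2 was lower at NPC day 6 than at ES day 0 in every line that has both.

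The comparison of NPC day 6 with ES day 0 asks what changed during differentiation, as the mean of the 6 arms that have both time points, an arm being 1 line in 1 treatment. The largest changes were a 2.71-fold rise of Dnmt3b and a 2.79-fold fall of Tet2. Dnmt3a, Uhrf1, Tet3 and, by the smallest amount, Dnmt1 also rose, Tet1 fell, and Dnmt3l did not pass the test. Of the 8 genes, 5 were higher and 2 lower, beside 29.4% of all tested genes called higher and 29.4% called lower. The median change of the 8 was 0.34 on the log2 scale, against 0.0047 for all genes. Calls were frequent in this comparison, so that a call alone sets none of the 8 apart.

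Dnmt3b, a de novo methyltransferase, rose by 1.44 ± 0.22 on the log2 scale (SE, as after every ± of a log2 value; adjusted p = 1.28e-06 by edgeR). In SPOC cells it stood at 28.8, 25.4 and 47.2 CPM at ES day 0 and at 311 and 182 CPM at NPC day 6. In DelPID_SPOC cells it went from 59.0 and 40.7 CPM to 270 and 86.9 CPM, and in untreated PCGF35 cells from 157 and 138 CPM to 386 and 564 CPM. All NPC libraries of these arms were above all their ES libraries, although the SPOC and DelPID_SPOC lines started far lower. With dTAG-13, PCGF35 cells went from 171 and 298 CPM to 489 and 767 CPM. Untreated PCGF35_SPOC cells went from 180 and 82.7 CPM to 186 and 260 CPM, and with dTAG-13 from 218 and 115 CPM to 116 and 229 CPM. The last of these arms was the only one whose time points overlapped, and its change was 0.05 ± 0.54. Its clones went in opposite directions, F10 from 218 to 116 CPM and F6 from 115 to 229 CPM, while untreated F10 went from 180 to 186 CPM and F6 from 82.7 to 260 CPM.

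Over all arms together, the level of Dnmt3b was higher at NPC day 3 than at day 6, but not in every arm. Group means at days 3 and 6 were 211 and 247 CPM in SPOC cells and 635 and 628 CPM in PCGF35 cells with dTAG-13. The call of day 6 against day 3, described further on, was lost in 15 of 32 fits that left out 1 library. Relative to ES day 0, NPC day 3 was higher by 1.96 ± 0.22 (adjusted p = 6.94e-09), and the median over libraries went from 115 CPM at ES day 0 (range 25.4 to 298, n = 13) to 414 CPM at NPC day 3 (159 to 959, n = 16) and 265 CPM at NPC day 6 (86.9 to 767, n = 16). The NPC medians over 16 libraries here and in what follows include WT and DelPID, which the test of 6 arms does not. At NPC day 3, 6 of the 8 genes were called, beside 55.6% of all genes. Tet1, lower by 0.30 ± 0.15 (adjusted p = 0.078), was not called at that day.

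Dnmt3a, the other de novo enzyme, rose by 0.63 ± 0.10 (adjusted p = 4.98e-06). Its level per length stayed low in both cultures. The median was 61.2 CPM at ES day 0 (34.2 to 82.4, n = 13) and 94.0 CPM in the 16 NPC day 6 libraries (51.8 to 149), and all NPC libraries exceeded all ES libraries in 4 of 6 arms. Across the group means, Dnmt3a and Dnmt3b went together, with Pearson's r of 0.912 over the 12 ES groups and 0.947 over the 16 NPC groups, as a description of groups that share lines. The Dnmt3aos gene lies inside Dnmt3a on the opposite strand, and the counting used strand.

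Dnmt3l, the inactive partner, changed by 0.18 ± 0.22 (adjusted p = 0.50), with a 95% interval from -0.27 to 0.63. Its arms went in different directions. It went from 19.5, 14.8 and 47.8 CPM to 67.6 and 62.4 CPM in SPOC cells without any overlap, and went from 59.0 and 50.7 CPM to 29.1 and 28.1 CPM in untreated PCGF35 cells, also without overlap, but no arm passed the test. The Aire gene overlaps Dnmt3l on the opposite strand.

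The maintenance genes moved less. Uhrf1 rose by 0.46 ± 0.09 (adjusted p = 6.16e-05), from a median of 99.0 CPM (77.8 to 125, n = 13) to 131 CPM in NPC day 6 libraries (97.5 to 219, n = 16), with no overlap in 5 of 6 arms. Dnmt1 rose by 0.22 ± 0.06 (adjusted p = 0.00111), from 195 CPM (167 to 216) to 229 CPM (188 to 270), with no overlap in 4 of 6 arms. Both genes are known to be most active in dividing cells. Of the 13 S phase markers read beside them, 8 were lower and 1, Mcm2, was higher at NPC day 6, beside 29.4% of all tested genes in each direction. The part of cell division in these levels was not tested.

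Among the demethylating enzymes, Tet2 fell by 1.48 ± 0.18 on the log2 scale (adjusted p = 1.46e-08). It went from 295 and 210 CPM to 55.2 and 50.3 CPM in untreated PCGF35 cells, and from 277 and 308 CPM to 82.1 and 77.0 CPM with dTAG-13. In PCGF35_SPOC cells it went from 222 and 139 CPM to 69 and 88.5 CPM untreated, and from 217 and 158 CPM to 73.6 and 106 CPM with dTAG-13. In DelPID_SPOC cells it went from 274 and 457 CPM to 63.2 and 165 CPM, and in SPOC cells from 223, 248 and 156 CPM to 95.0 and 145 CPM. The NPC libraries were below the ES libraries in 6 of 6 arms, and the fall in single arms ran from 0.80 to 2.26. It was already -1.33 ± 0.18 at NPC day 3 (adjusted p = 1.11e-07).

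Tet1 and Tet3 went in opposite directions. Tet3, which is known from the oocyte and the brain, rose by 0.68 ± 0.09 (adjusted p = 2.3e-07), from a median of 31.1 CPM (25.9 to 52.0, n = 13) to 47.5 CPM (34.5 to 75.2, n = 16). Its time points did not overlap in 5 of 6 arms, the exception being DelPID_SPOC cells with 37.1 and 52.0 CPM at ES day 0 and 46.8 and 41.2 CPM at NPC day 6. Tet1, the Tet enzyme best known from ES cells, fell by 0.47 ± 0.15 (adjusted p = 0.00649). Only the PCGF35 arms had no overlap, from 1620 and 752 CPM to 436 and 458 CPM untreated and from 1160 and 958 CPM to 660 and 577 CPM with dTAG-13. In SPOC cells Tet1 was at 685, 897 and 590 CPM at ES day 0 and at 803 and 861 CPM at NPC day 6.

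**Figure D2:**
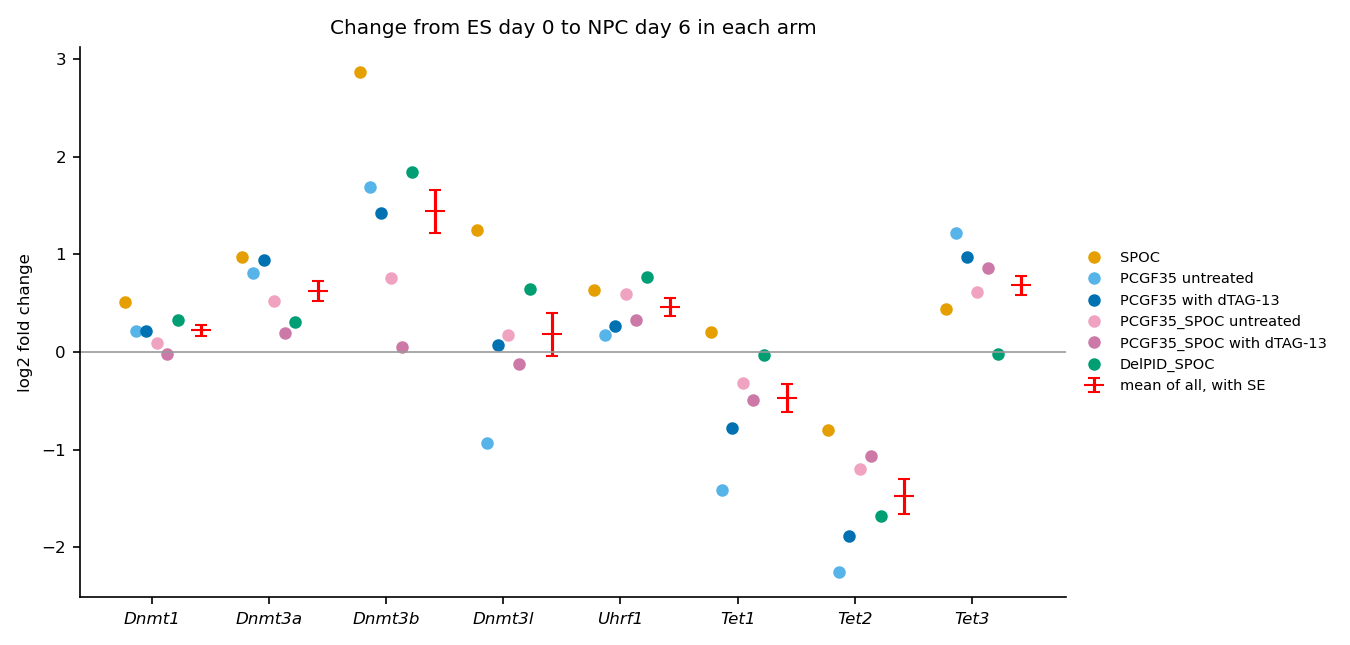
Change from ES day 0 to NPC day 6 (log2 fold change) of each gene in each of 6 arms (points) and the mean of the arms with its standard error (red bars). Tet2 is below 0 in all 6 arms and Dnmt3b above 0 in all 6, from 0.05 in PCGF35_SPOC cells with dTAG-13 to 2.87 in SPOC cells.

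Taken arm by arm, 16 of the 48 pairs of gene and arm were called, and 26 were with the replicate block. The 16 were 5 of 8 genes in untreated PCGF35 cells (29.5% of all genes called), 3 in PCGF35 cells with dTAG-13 (11.4%), none in untreated PCGF35_SPOC cells (7.37%), 1 in PCGF35_SPOC cells with dTAG-13 (5.37%), 3 in DelPID_SPOC cells (19.2%) and 4 in SPOC cells (34.1%). In untreated PCGF35_SPOC cells 3 of 8 genes had an unadjusted p under 0.05 and DESeq2 was not run by arm. Clone F10 and clone F6 make up that arm and differed in level, as described for each clone further on. Whether arms differed was tested directly. No gene of the 8 was called in the test of any difference among the 6 arms, beside 2.17% of all genes. In it 3 of the 8 had an unadjusted p under 0.05, and DESeq2 was not run for it. With the clone, or in PCGF35 cells the replicate number, as a block over all days, 5 were called, beside 25.4% of all genes. Nothing shows that the number pairs PCGF35 cultures of different days. These 5 were Dnmt1, Dnmt3a, Dnmt3b, Dnmt3l and Tet3, with adjusted p = 0.0221 for Dnmt3b. In the difference between PCGF35_SPOC and PCGF35 cells, with treatments averaged, the change of Dnmt3b was smaller by 1.15 ± 0.54 (adjusted p = 0.414 by edgeR) and the fall of Tet2 was smaller by 0.94 ± 0.43 (adjusted p = 0.402), neither passing the test. No gene of the 8 was called there by edgeR or DESeq2, beside 0.00616% of all genes by edgeR, and 2 of 8 had an unadjusted p under 0.05.

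The genes that act with these enzymes were called in both directions between ES day 0 and NPC day 6, as were genes at large. Of all tested genes 29.4% were called higher and 29.4% lower, so that the counts below set neither the partners nor the cofactors apart. Of 19 tested partners of demethylation, 6 were higher and 3 lower (median 0.05). Gadd45g and Gadd45b, small stress-response proteins linked to demethylation, were higher by 1.76 and 1.24, and Cxxc4, a CpG-binding partner of Tet2, by 1.60. The lower ones were Ogt, the X-linked O-GlcNAc transferase that binds Tet proteins, by -0.67, the ligase Lig3 by -0.40 and the glycosylase Mbd4 by -0.29. Tdg, the glycosylase that excises oxidized methylcytosine, changed by 0.13 ± 0.23 and was not called (named after its value was seen). Ogt lies on the X chromosome, where Xist was induced.

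Of 19 tested cofactors that guide or protect methylation, 7 were higher and 6 lower (median 0.05), beside 29.4% of all tested genes in each direction. The lower ones were led by Prdm14 (-1.21), which represses the de novo enzymes in naive cells, Dppa3 (-1.02), which keeps Uhrf1 off DNA, and Zfp57 (-0.63), which guards imprints. The higher ones were led by Kdm2b (0.73), a CpG island binder, E2f6 (0.55) and Ehmt1 (0.48), a histone H3K9 methyltransferase. Hells and Cdca7, the remodeller and its partner, changed by 0.05 and 0.03 and were not called (also named after their values were seen). Of 8 genes listed as readers of methylated DNA or members of their families, 2 were higher, Mbd3 (0.91) and Mbd2 (0.23). Of these 8, 1, the X-linked Zbtb33 (-0.64), was lower.

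State markers moved in the same comparison, in which 29.4% of all tested genes were called higher and 29.4% lower. Of 11 tested pluripotency markers 9 were lower, led by Tbx3 (-2.37), Zfp42 (-1.84) and Tfcp2l1 (-1.68), and 1, Utf1 (0.97), was higher. Of 5 formative markers, which mark the stage after the naive one, 3 were higher, among them Fgf5 (2.26), Pou3f1 (1.52) and Sox3, which was at 0.13 to 2.6 CPM in NPC libraries and is given no fold for that reason. Of 7 tested endoderm and mesoderm markers 4 were higher, among them Gata4 (1.82), Gata6 (1.51) and Foxa2, which was at 0 to 2.13 CPM in NPC libraries and is given no fold for that reason, and Eomes was lower (-0.81). The summed endoderm and mesoderm markers ranged from 12.2 to 179 CPM at NPC day 6 and from 11.5 to 32.0 CPM at ES day 0, with up to 3 of 8 at 0 in a library. Of 7 tested feeder fibroblast markers Col1a2 (2.03) was higher and Pdgfrb (-0.92) and Thy1 (-0.76) were lower, the sum of the list running from 2.39 to 139 CPM at NPC day 6 and from 4.39 to 37.4 CPM at ES day 0. The part of these cell types in the levels of the 8 genes was not tested.

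The comparison of ES day 1 with ES day 0 asks what 1 day of doxycycline, which induces Xist, does in otherwise unchanged medium. Every line carries the inducible promoter, so that the drug and Xist RNA cannot be told apart. None of the 8 genes was called by edgeR or by DESeq2, none had an unadjusted p under 0.05, and 0.0924% of all genes were called. The largest value was -0.25 ± 0.22 for Dnmt3l, and the 95% interval was -0.10 to 0.13 for Dnmt1 and -0.31 to 0.55 for Dnmt3b. Dnmt3l and Tet2 were below 0 in all 6 arms, by 0.06 to 0.47 and by 0.02 to 0.32.

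Within the NPC culture, day 6 was compared with day 3 over 8 arms, WT and DelPID included. Dnmt3b was lower by 0.56 ± 0.19 on the log2 scale (adjusted p = 0.0328) and Tet3 higher by 0.23 ± 0.08 (adjusted p = 0.0412), beside 21.3% of all genes called. Dnmt3b went from 915 and 959 CPM to 386 and 564 CPM in untreated PCGF35 cells, from 565 and 280 CPM to 186 and 260 CPM in untreated PCGF35_SPOC cells and from 475 and 247 CPM to 116 and 229 CPM in PCGF35_SPOC cells with dTAG-13. In these arms day 6 was lower without overlap. In WT cells it was at 513 and 354 CPM and then at 437 and 196 CPM, and in SPOC cells at 244 and 179 CPM and then at 311 and 182 CPM, and both overlapped. Dnmt3a was at -0.24 ± 0.09 (adjusted p = 0.055), and with the replicate block it too was called (-0.23, adjusted p = 0.00518; 34.6% of all genes called). Neither call held in every fit that left out 1 library. That of Dnmt3b was lost in 15 of 32 fits that left out 1 library, with adjusted p up to 0.0975 without DelPID day 3 replicate 1. These left out replicate 1 of day 3 in every arm but untreated PCGF35, replicate 2 of day 6 in WT, DelPID, DelPID_SPOC and SPOC cells, or replicate 1 of day 6 in the PCGF35 and PCGF35_SPOC arms. That of Tet3 was lost in 12 of 32, with adjusted p up to 0.126 without DelPID day 6 replicate 1. The others were replicate 2 of day 6 in WT and untreated PCGF35 cells, replicate 1 of day 6 in DelPID_SPOC and both PCGF35_SPOC arms, replicate 1 of day 3 in untreated PCGF35 and SPOC cells, and replicate 2 of day 3 in DelPID, DelPID_SPOC, PCGF35 with dTAG-13 and PCGF35_SPOC with dTAG-13. No gene of the 8 was called when NPC libraries alone were fitted (3 had an unadjusted p under 0.05 in the fit of all libraries). Other lists moved between these days as well. Of the tested markers, 3 of 6 neural, 4 of 7 endoderm and mesoderm and 1 of 5 formative ones were higher at day 6, whereas 2 of 11 pluripotency, 3 of 13 S phase and 2 of 7 feeder ones were lower. Of the methyltransferase cofactors 6 of 19 were lower, and of the demethylation partners 2 of 19 were higher and 1 was lower. In the list of methyl-CpG readers and their family members 2 of 8 were higher. Examples, named after their values were seen, are Nes (1.61), Gata6 (1.55), Gata4 (1.28), Zfp42 (-1.02), Dppa3 (-0.43) and Hells (-0.34). The part of these lists in the values of Dnmt3b and Tet3 was not tested.

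Degradation of PCGF3 and PCGF5 was compared with parallel untreated cells over ES days 0 and 1 and NPC days 3 and 6 in PCGF35 and PCGF35_SPOC cells. None of the 8 genes was called by edgeR or DESeq2, none had an unadjusted p under 0.05, and 0.0247% of all genes were called. The largest values were 0.26 ± 0.15 for Tet2 (95% interval -0.05 to 0.57) and 0.24 ± 0.20 for Dnmt3l (-0.16 to 0.64), and Dnmt1 was the narrowest (-0.11 to 0.09). Tet2 was above 0 in all 8 pairs of line and day, by 0.04 to 0.69. Its largest pair was PCGF35 at NPC day 3, with 84.4 and 119 CPM against 65.5 and 60.6 CPM untreated. Dnmt3l at NPC day 6 was at 58.9 and 73.7 CPM in PCGF35 cells with dTAG-13 and at 29.1 and 28.1 CPM in untreated ones, and this pair did not pass the test either. The effect of dTAG-13 was not found to differ between PCGF35_SPOC and PCGF35 cells for any of the 8 genes by edgeR or DESeq2, none had an unadjusted p under 0.05, and 0% of all genes were called.

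The SPOC mutation was compared with its parent background in NPC, as the mean of 4 pairs (SPOC with WT, PCGF35_SPOC with PCGF35 untreated and with dTAG-13, DelPID_SPOC with DelPID) over days 3 and 6. Both de novo methyltransferases were lower in the mutants. Dnmt3b was lower by 1.00 ± 0.19 on the log2 scale, which is 2.00-fold (adjusted p = 0.000708), and Dnmt3a by 0.47 ± 0.09, which is 1.39-fold (adjusted p = 0.00086). The 2 genes of 8 stood beside 8.62% of all genes called. The 8 values of pair and day ran from -1.86 to -0.36 for Dnmt3b and from -0.77 to -0.05 for Dnmt3a. All were below 0, and none passed the test on its own. These values are not independent. PCGF35_SPOC clones and their PCGF35 parent enter both untreated and with dTAG-13, and clones and parent lines recur at both days. The test treated each library as independent. The paper describes WT as differentiated in parallel with clones D9 and H1, and DelPID with 1 DelPID_SPOC clone in each experiment. The labels do not say which replicate went with which clone, so this pairing was not used. Overlaps of mutant and parent libraries are given without it. The paper states no such pairing of PCGF35_SPOC with PCGF35.

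At NPC day 3, Dnmt3b was at 513 and 354 CPM in WT and at 244 and 179 CPM in SPOC libraries. Untreated PCGF35 libraries had 915 and 959 CPM and PCGF35_SPOC ones 565 and 280 CPM, and with dTAG-13 they had 757 and 512 CPM and 475 and 247 CPM. In each of these comparisons the mutant libraries were all below the parent libraries. DelPID libraries had 739 and 251 CPM and DelPID_SPOC ones 309 and 159 CPM, which overlapped. At NPC day 6 the largest gap was with dTAG-13, where PCGF35 libraries had 489 and 767 CPM and PCGF35_SPOC ones 116 and 229 CPM. The smallest was between WT, at 437 and 196 CPM, and SPOC, at 311 and 182 CPM. Untreated PCGF35 cells, the parent in the PCGF35_SPOC pairs, were themselves above WT in NPC, though not called. The difference was 0.85 ± 0.38 for Dnmt3b and 0.50 ± 0.18 for Dnmt3a. The part of that line in the gaps was not tested.

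Dnmt3a followed the same pattern at a lower level. At NPC day 3 it was at 125 and 99.5 CPM in WT and at 76.9 and 82.7 CPM in SPOC libraries, at 169 and 169 CPM in untreated PCGF35 libraries and at 111 and 99.6 CPM in PCGF35_SPOC ones. With dTAG-13 it was at 181 and 143 CPM in PCGF35 and at 110 and 93.1 CPM in PCGF35_SPOC libraries. All mutant libraries were below their parents in these pairs. DelPID libraries had 146 and 73.3 CPM and DelPID_SPOC ones 90.5 and 54.4 CPM, which overlapped. At NPC day 6, WT at 97.9 and 77.7 CPM and SPOC at 96.6 and 73.5 CPM overlapped.

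**Figure D3:**
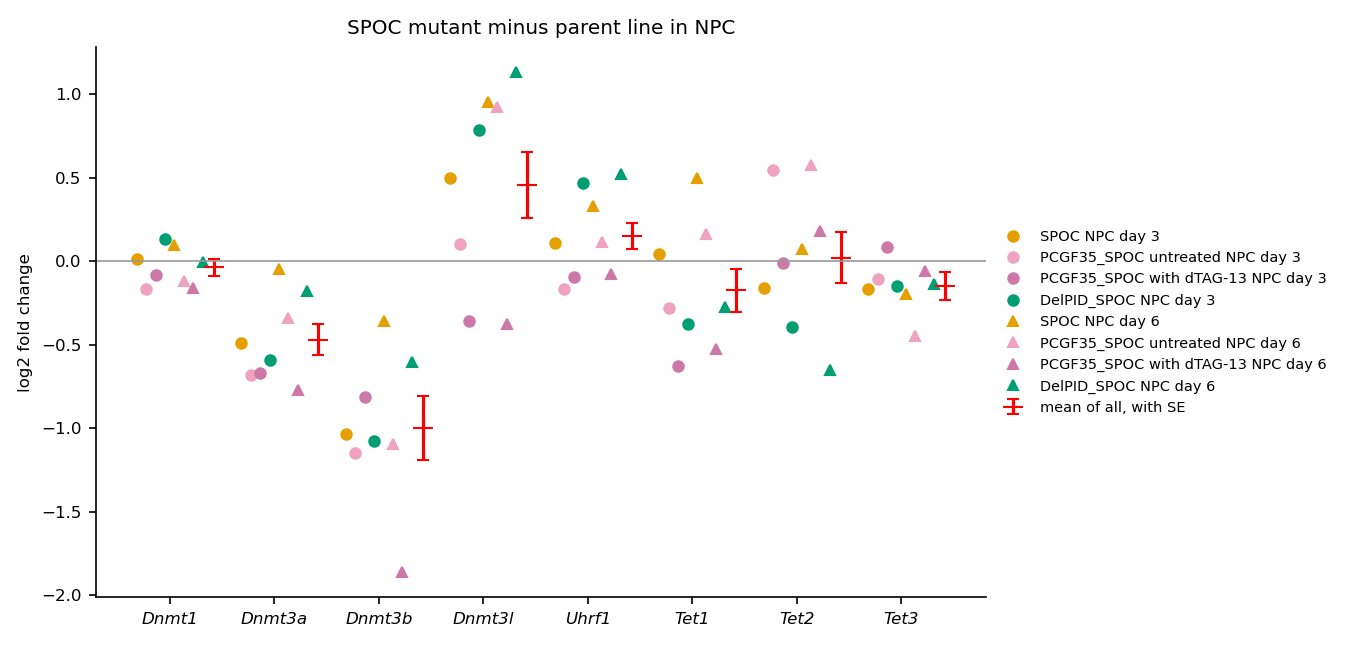
Log2 difference between SPOC mutant and parent cells in NPC for each gene, with 1 point per pair and day and the mean of the 8 values with its standard error. Dnmt3a and Dnmt3b are below 0 in all 8 values of pair and day, which share clones and parent lines. The values of the other 6 genes fall on both sides of 0.

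The other 6 genes were not called. Dnmt3l was at 0.46 ± 0.20 (adjusted p = 0.15; 0.0503 with the replicate block) and Uhrf1 at 0.15 ± 0.08 (adjusted p = 0.269), and Uhrf1 was called with the block (0.17, adjusted p = 0.0112; 21.4% of all genes called). The 95% intervals were -0.14 to 0.06 for Dnmt1, -0.43 to 0.09 for Tet1, -0.29 to 0.33 for Tet2 and -0.32 to 0.02 for Tet3. Other markers moved in the same comparison, in which 8.62% of all genes were called. The following genes were named after their values were seen. Of 11 pluripotency markers 4 were higher in the mutants, Nanog (0.81), Zfp42 (0.78), Klf2 (0.66) and Tfcp2l1 (0.52), and of 5 formative markers Lef1 was lower (-1.08). Prdm14, a repressor of the de novo enzymes, was higher by 0.80 (adjusted p = 0.00257) and Zfp57 by 0.71. Gata6 (-2.08) and Gata4 (-1.01) were lower, Eomes (0.54) higher, and 2 of 6 tested neural markers were higher, Pax6 (1.34) and Fabp7, which was at 0 to 2.13 CPM in NPC libraries and is given no fold. The summed pluripotency markers at NPC day 6 were 738 and 864 CPM in WT, 988 and 1290 CPM in SPOC, 903 and 1240 CPM in DelPID and 1290 and 1480 CPM in DelPID_SPOC libraries. The part of differentiation state in the difference of Dnmt3a and Dnmt3b was not tested.

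The lines also differed before differentiation. At ES days 0 and 1 Dnmt3b was at 25.4 to 50.1 CPM in SPOC libraries, at 40.7 to 68.9 CPM in DelPID_SPOC libraries and at 82.7 to 298 CPM in PCGF35 and PCGF35_SPOC libraries, so that the lines with and without the degron did not overlap. No WT or DelPID library of ES cells was analysed here, so that for SPOC and DelPID_SPOC cells mutation and line cannot be told apart in ES cells. Within the degron background both can be set side by side. At ES day 0 Dnmt3b was at 157 and 138 CPM in untreated PCGF35 and at 180 and 82.7 CPM in untreated PCGF35_SPOC libraries, and at 171 and 298 CPM against 218 and 115 CPM with dTAG-13. At ES day 1 it was at 185 and 164 CPM against 201 and 97.9 CPM untreated, and at 197 and 205 CPM against 203 and 135 CPM with dTAG-13. All 4 of these pairs of groups overlapped, and so did all 4 for Dnmt3a, which was at 58.8 to 77.5 CPM in PCGF35 and at 57.5 to 82.4 CPM in PCGF35_SPOC libraries of ES cells. No test of the mutation was run in ES cells.

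DelPID, which lacks the Polycomb-recruiting region of Xist, was compared with WT in NPC. The paper does not say that these lines were differentiated together, so that the deletion, the line and the differentiation experiment cannot be told apart. None of the 8 genes was called by edgeR or DESeq2, none had an unadjusted p under 0.05, and 7.56% of all genes were called. The values were small for Dnmt3b (-0.02 ± 0.38) and Dnmt3a (-0.08 ± 0.18) and largest for Tet2 (0.53 ± 0.30) and Tet1 (0.42 ± 0.26). The 2 DelPID replicates stood apart, with Dnmt3b at 739 and 251 CPM at day 3 and at 374 and 174 CPM at day 6, and the interval for Dnmt3b ran from -0.79 to 0.76.

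The degron-tagged PCGF35 line without dTAG-13 was compared with WT in NPC. The paper does not say that these lines were differentiated together, so that line and differentiation experiment cannot be told apart. Tet3 was higher by 0.63 ± 0.17, or 1.55-fold (adjusted p = 0.0284), at 47.1 and 53.7 CPM against 33.9 and 35.0 CPM at day 3 and at 64.0 and 75.2 CPM against 36.8 and 48.1 CPM at day 6. Neither day overlapped. It was the only 1 of 8 called, beside 3.12% of all genes, and the call did not hold in 7 of 8 fits that left out 1 library (adjusted p 0.0505 to 0.105), the exception being the fit without WT day 6 replicate 2. Tet2 was lower, though not called, by 1.0 ± 0.31 on the log2 scale (adjusted p = 0.0624), with 65.5 and 60.6 CPM against 105 and 129 CPM at day 3 and 55.2 and 50.3 CPM against 96.6 and 132 CPM at day 6, without overlap. With the replicate number as a block, although nothing shows that the numbers pair these cultures, Dnmt3a (0.51), Dnmt3b (0.90), Tet2 (-0.99) and Tet3 (0.63) were called, beside 13.2% of all genes. The endoderm gene Sox17, at 0 to 6.76 CPM in NPC libraries and given no fold for that reason, was higher and the pluripotency gene Tfcp2l1 (-1.20) lower in the same comparison, both named after their values were seen, and the summed endoderm and mesoderm markers at day 6 were 81.7 and 154 CPM in PCGF35 libraries against 15.7 and 40.5 CPM in WT. Their part in these values was not tested.

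Clones of one genotype stood apart from each other for some of the genes, which is described without a test. Dnmt3l was at 18.9 to 40.0 CPM in the 8 libraries of PCGF35_SPOC clone F10 and at 55.9 to 83.8 CPM in the 8 of clone F6, with no overlap on any day or treatment. In SPOC cells at ES days 0 and 1 it was at 14.8 to 19.5 CPM in clones C11 and D9 and at 39.5 and 47.8 CPM in clone H1, and at NPC days 3 and 6 clones D9 and H1 were alike, at 56.5 to 67.6 CPM. Tet1 also separated F10 from F6. In NPC it was at 415, 314, 390 and 186 CPM in F10 and at 675, 686, 629 and 673 CPM in F6, whereas in ES cells F10 was the higher, at 611 to 723 CPM against 486 to 546 CPM. In DelPID_SPOC cells clone G3 had more Tet2 than clone A8 in every pair, with 165 against 63.2 CPM at NPC day 6, and less Dnmt3b, with 86.9 against 270 CPM. The study found a subpopulation of XO cells in clone F6 and sub-cloned it before sequencing. For a second clone of PCGF35_SPOC, it interprets skewed allelic ratios in NPC as loss of the Cast X chromosome. The legend calls that clone G3, whereas the resources table of the paper lists only F6 and F10 for this line. There G3 is a DelPID_SPOC clone. The paper shows F6 in a different figure, so that the clone with skewed ratios may be F10, whose libraries are used here. The part of X loss, and that of the ploidy of the DelPID_SPOC G clone, in these values was not tested.

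**Figure D4:**
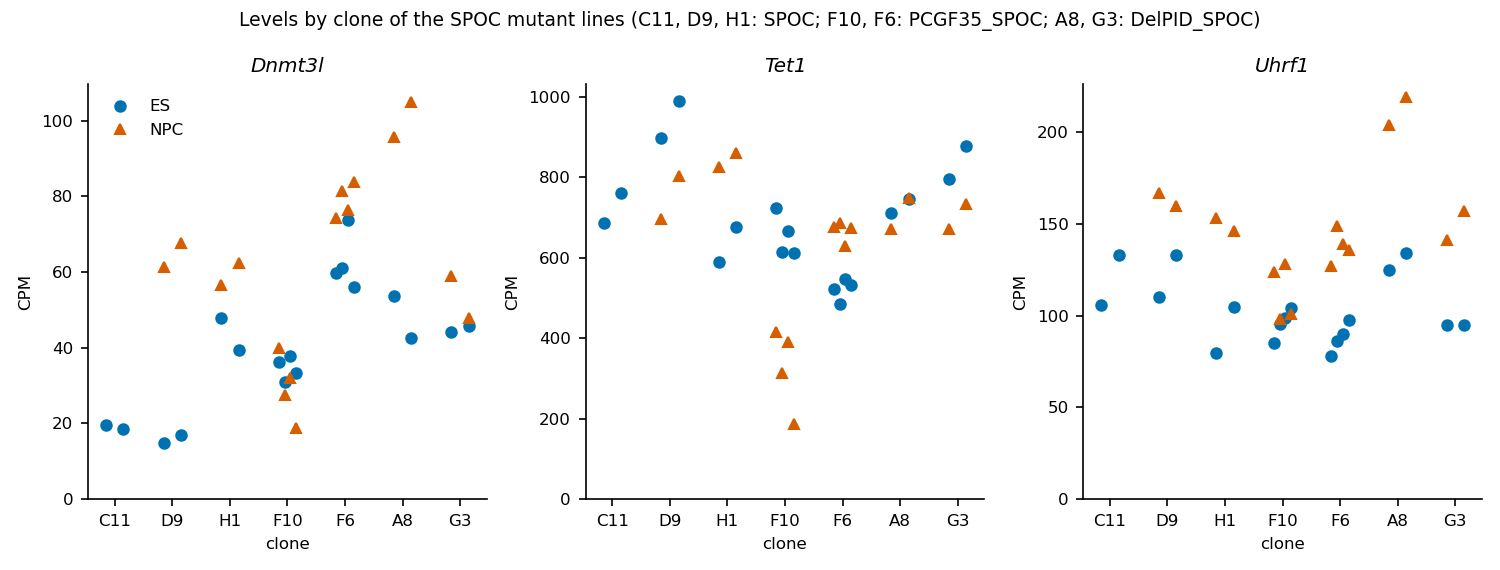
Level in CPM of Dnmt3l, Tet1 and Uhrf1 by clone of the SPOC mutant lines, with 1 point per library (circles ES, triangles NPC). Dnmt3l is at 18.9 to 40.0 CPM in clone F10 and at 55.9 to 83.8 CPM in clone F6, both clones of the PCGF35_SPOC genotype.

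The genes whose group means followed each member most closely over the 28 groups, among all tested genes, are given as a description, since groups share lines and cultures. For Tet2 they were Mitf and Jam2 (both r = 0.965), for Dnmt3b Slc35f2 and Pak6 (both r = 0.957) and for Dnmt3a Rragd (0.954) and Cdca7l (0.94). For Dnmt1 they were Pid1 (0.929) and Dna2 (0.919), for Uhrf1 BC017158 (0.91) and Egln2 (0.907), for Tet3 Nt5m (0.898) and Parp8 (0.89) and for Tet1 A930004D18Rik (0.895) and Lrrc2 (0.892). Dnmt3l was the least closely followed, by Naa10 (0.87) and Sms (0.863), both on the X chromosome.

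Fragments that cover a strain difference were also counted for each allele, and all 8 genes had at least 20 of them in every library. The share from the Dom (129S) allele describes the balance of the 2 copies. From ES day 0 to NPC day 6, as the mean of 6 arms, it changed for 2 of the 8 genes by limma on log2 Dom over Cast, beside 17.9% of 6494 autosomal genes tested. For Dnmt3b the share was 44.5% ± 4.37 (SD, n = 13) at ES day 0 and 47.4% ± 1.94 (n = 12) at NPC day 6, a change of 0.19 ± 0.06 in log2 Dom over Cast (adjusted p = 0.0361). For Tet2 it was 52.0% ± 4.60 (n = 13) and 46.9% ± 4.11 (n = 12), a change of -0.28 ± 0.09 (adjusted p = 0.0215).

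Clones differed in these shares. The Dnmt3b share in clone F6 was 38.1% and 38.9% at ES day 0 and 47.6% and 45.8% at NPC day 6, whereas in clone F10 it was 47.7% and 48.8% and then 48.7% and 47.9%. The Tet2 share was 56.8% and then 40.3% in clone A8 and was 53.7% and then 55.7% in clone G3. The Dnmt3b call was lost in 13 of 25 fits that left out 1 library (adjusted p 0.0511 to 0.118). These left out, at ES day 0, replicate 2 of untreated PCGF35, both PCGF35_SPOC arms or DelPID_SPOC, or replicate 1 of PCGF35 with dTAG-13 or SPOC, and at NPC day 6 replicate 1 of any of the 6 arms or replicate 2 of untreated PCGF35. The Tet2 call was lost in 5 of them (adjusted p 0.0515 to 0.0747), which left out PCGF35 untreated ES day 0 replicate 2, PCGF35 untreated NPC day 6 replicate 2, PCGF35_SPOC ES day 0 replicate 2 (untreated or with dTAG-13) and DelPID_SPOC NPC day 6 replicate 1.

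The shares were also read beside those of the rest of the chromosome. The other genes of chromosome 12 together had a Dom share of 32.8% to 35.8% in all 58 libraries, where the sum of all autosomes was at 46.3% to 51.9%, and Dnmt3a, on chromosome 12, was at 35.9% to 48.1%, under 50% in all 58. In the ES libraries of SPOC clone D9 chromosome 3 stood at 60.1% and 60.5% and Tet2, on chromosome 3, at 61.1% and 60.9%, while in NPC libraries of that clone the chromosome was at 53.3% and 53.0% and Tet2 at 44.8% and 43.5%. In the libraries of DelPID_SPOC clone A8 chromosome 17 was at 46.2% to 46.5% and Uhrf1, on that chromosome, at 38.0% to 43.2%, against medians of 52.3% and 55.1% over the 58 libraries. Tet1 and Tet3 were above 50% in all 58 libraries, at 51.9% to 62.4% and 50.4% to 63.0%. Copy number and allelic expression cannot be told apart from these shares.

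**Figure D5:**
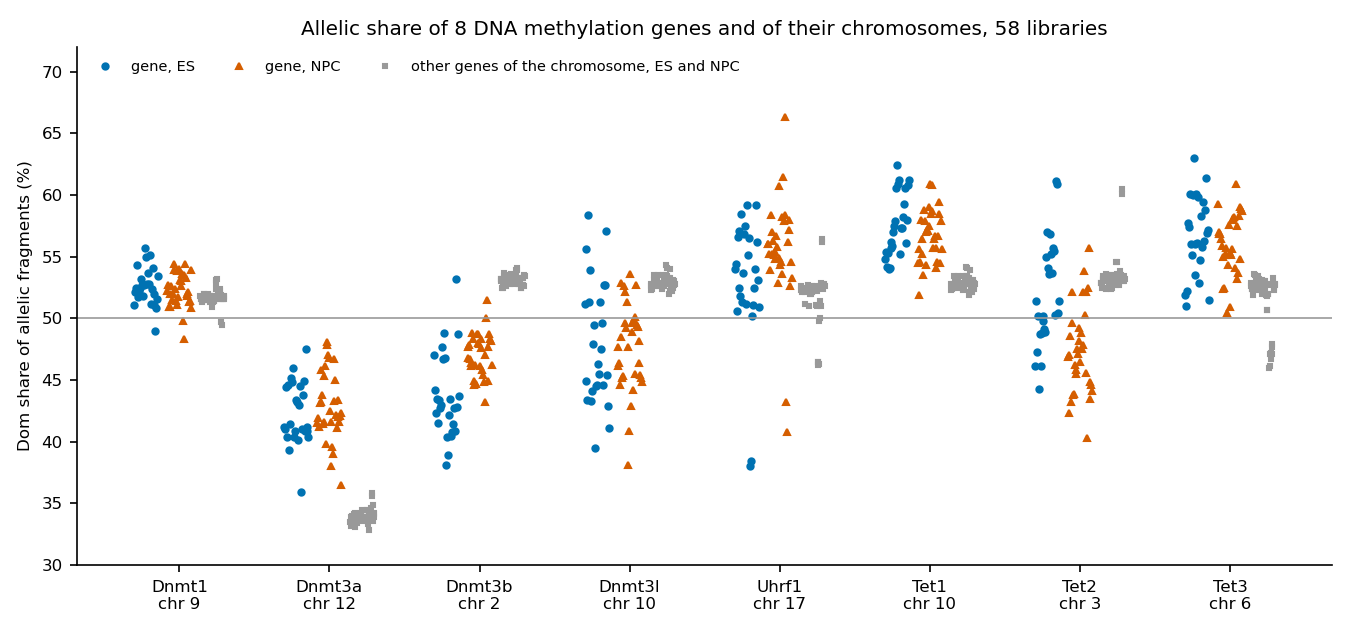
Share of allelic fragments from the Dom allele (percent) for each gene in each of the 58 libraries, beside that of the other genes of its chromosome (grey). Dnmt3a lies under 50% in all 58 libraries on a chromosome at 32.8% to 35.8%, and Tet1 and Tet3 lie above 50% in all 58.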

How the data were processed

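The deposited files held raw counts. To make them the authors, by their own description, filtered out ribosomal RNA reads with Bowtie2 (2.3.2), aligned the rest to an mm10 genome masked at strain differences with STAR (2.4.2a), split reads by allele with SNPsplit and counted fragments over whole gene spans by strand with featureCounts. The count of all fragments and those of the Cast and Dom alleles were used. Counts of nascent RNA include introns, so that long genes gather more fragments.

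Counts of 58 libraries were fitted together with edgeR (4.0.16, R 4.3.3; quasi-likelihood test, filterByExpr, TMM scaling, 1 mean per group), and p-values were adjusted by Benjamini-Hochberg over 16227 genes. Each SE is the log2 fold change divided by the square root of F. Allele ratios (log2, offset 0.5, at least 20 allelic fragments in each library) were tested with limma (3.58.1). DESeq2 (1.42.0), other scalings, filters and sets of libraries, fits without each library and replicate blocks were the alternatives. The scripts were tested on simulated data. All 32 replicate pairs were farther apart than sampling noise, so none was a library deposited again.

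Clones pair the libraries of the SPOC lines by cell line, and treated and untreated PCGF35 cultures of a day were grown in parallel. Deviations from group means of libraries so paired correlated at 0.219 to 0.842 for PCGF35_SPOC and 0.271 to 0.769 for DelPID_SPOC. They correlated at -0.0439 to 0.472 for SPOC and 0.186 to 0.658 for PCGF35. The replicate block linked no mutant library to a library of its parent line. It used the clone, and in WT, PCGF35 and DelPID the replicate number over all days and treatments. Paired by that number over all groups, PCGF35 libraries correlated at -0.0246 to 0.668, with a median of 0.0504.

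Named were all 8 genes, at most 3 genes per direction and list with the largest called change in differentiation, and the 2 genes most correlated with each member (Pearson's r of mean log2 CPM, prior count 2, over 28 groups). The members and lists were chosen with earlier results of these data known. Other genes are marked in the text as named after their values were seen.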

Additional observations from a re-analysis of the deposited data

How the results depend on the processing

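The 7 calls of differentiation and the 2 of the SPOC mutation kept their direction and their side of the threshold in every fit run, except that Tet1 was not called at NPC day 3 in place of day 6, and no result reversed. Leaving out 1 library gave 7 and 2 calls each time. Over the 14 called values of the 8 genes, 98 of 103 values under other settings and 309 of 361 without 1 library stayed on their side of the threshold, and the others fell short of it. At NPC day 3, 6 of 8 were called, an alternative chosen after seeing the data, as were those without an arm or pair and the block for single arms.

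The comparison of NPC day 6 with day 3 had 2 calls, 1 without the DelPID arm (Tet3), 0 when only the groups compared were fitted, and 0 to 3 without 1 library. PCGF35 against WT had 1 call, 4 with the replicate block as a fixed term, 0 with the block as a random term in limma-voom, 2 by DESeq2 (Tet2 and Tet3), 3 with only the groups compared, and 0 to 1 without 1 library. The arms taken singly had 16 calls and 26 with the replicate block. The allele comparison had 0 to 3 calls without 1 library. The block changed no other call than those named in the text. The cause of these changes was not tested.

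Counts over all genes moved more. With the fixed block and the random block they were 96 and 122 for induction (15 in the main test), 5612 and 5430 for NPC day 6 against day 3 (3462), 257 and 91 for dTAG-13 (4), 3468 and 310 for the SPOC mutation (1399), 3079 and 614 for DelPID (1226), 2135 and 105 for PCGF35 against WT (507) and 804 and 429 for the interaction with differentiation (1). DESeq2 called 36 for induction, 7 for dTAG-13, 778 for PCGF35 against WT and 70 for the interaction. With only the groups compared they were 32, 2, 1332 and 0 for these, and 491 for DelPID. The interaction had 4 with no filter, and the SPOC mutation 833 without the DelPID pair. Depth limits the DelPID libraries most, where Dnmt3l had 49 fragments.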
